A study of Mus musculus with 24 samples.

Results

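The transcripts of 10 enzymes that build ceramide were followed in the livers of 3 mouse genotypes: Sptlc1, Sptlc2, Sptlc3, Kdsr, Cers2, Cers3, Cers5, Cers6, Degs1 and Degs2. The members were listed by name, and each was read by the probe set that the array annotation gives to it alone, which was 1 probe set for each of the 10. They stand among 19938 genes that have such a probe set. Liver RNA came from 24 male mice at 24 weeks of age, 8 of each genotype, and each mouse had its own Affymetrix Mouse Gene 1.0 ST array. The C57Bl6 controls were wild type. The alb-SREBP-1a mice (C57Bl6-TgN alb-HA-hSREBP-1a-NT) carried the HA-tagged N-terminal, active domain of the human lipid regulator SREBP-1a behind the albumin promoter, which drives expression in hepatocytes. The alb-SREBP-1a∆P mice (with hSREBP-1a∆P-NT in that name) carried the same construct with its MAPK phosphorylation sites mutated. All 3 genotypes shared the C57Bl6 background and ate standard chow, and the mice were litter mates according to the methods. The transgenic product lacks the membrane anchor of the full-length protein and is therefore a model of constant supply of the active form rather than of its release. The comparisons asked what the transgene changed against C57Bl6 and what differed once the phosphorylation sites were missing.

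Ceramide is the core from which sphingomyelin and the glycosphingolipids are made. New synthesis starts in the endoplasmic reticulum, where serine palmitoyltransferase joins serine and palmitoyl-CoA. Its catalytic unit pairs Sptlc1 with either Sptlc2 or Sptlc3. The reductase Kdsr turns the product into dihydrosphingosine, ceramide synthases (the Cers genes) attach a fatty acid whose length depends on the enzyme, and the desaturases Degs1 and Degs2 complete the molecule. The liver makes ceramide for its own membranes and exports it in lipoproteins, and hepatic ceramide is widely studied in fatty liver and insulin resistance.

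Because SREBPs act at promoters, the 250 bases before a start annotated for each gene were read from RefSeq (GRCm38.p6). Below, start means this position, which is not always the outer end of the gene. The windows of Degs1, Cers2, Cers3 and Cers6 lie inside the annotated span of the gene, and that of Sptlc1 overlaps it. All 10 enzymes matched, with 11 promoters in all since Cers2 has 2. Shown here are the promoters of the 4 enzymes whose transcripts fell in alb-SREBP-1a∆P liver, each 5′ to 3′ on the strand of the gene, with motif matches in capitals. They lie at chr13:53377362-53377611 (Sptlc1), chr12:87388356-87388605 (Sptlc2), chr1:106759743-106759992 (Kdsr) and chr1:182282196-182282445 (Degs1), all on the minus strand.
Sptlc1: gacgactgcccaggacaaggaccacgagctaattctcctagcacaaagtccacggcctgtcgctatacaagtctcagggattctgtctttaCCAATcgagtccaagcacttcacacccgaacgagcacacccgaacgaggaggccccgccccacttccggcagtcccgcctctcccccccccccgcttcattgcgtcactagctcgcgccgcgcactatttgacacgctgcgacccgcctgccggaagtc
Sptlc2: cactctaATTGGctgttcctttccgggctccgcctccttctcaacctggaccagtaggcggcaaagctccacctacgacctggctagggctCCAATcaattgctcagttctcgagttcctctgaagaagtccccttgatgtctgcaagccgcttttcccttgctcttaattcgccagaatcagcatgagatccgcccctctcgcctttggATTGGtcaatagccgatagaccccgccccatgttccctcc
Kdsr: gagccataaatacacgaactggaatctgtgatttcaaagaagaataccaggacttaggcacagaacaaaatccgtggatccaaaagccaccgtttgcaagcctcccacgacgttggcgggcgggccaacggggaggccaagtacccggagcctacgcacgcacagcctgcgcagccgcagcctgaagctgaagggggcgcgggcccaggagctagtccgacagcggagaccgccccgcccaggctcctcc
Degs1: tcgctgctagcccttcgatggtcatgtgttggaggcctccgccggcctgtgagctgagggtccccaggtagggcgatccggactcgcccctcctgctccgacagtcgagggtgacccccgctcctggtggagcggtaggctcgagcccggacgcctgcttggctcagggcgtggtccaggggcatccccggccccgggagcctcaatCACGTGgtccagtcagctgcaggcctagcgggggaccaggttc
The letters searched, on both strands, were TCACNCCAC for the core of a sterol regulatory element, CACGTG for an E-box and CCAAT for the CCAAT box, which reads ATTGG where it lies on the other strand. No matches overlapped. Among 32851 mouse promoters of this length, 1.05% held the first, 6.02% the second and 33.8% the third. TCACNCCAC was in none of the members' windows. CACGTG was in 3 of the 10 enzymes, starting 43 bases before the start of Degs1, 129 before that of Cers2 and 22 before that of Cers6. CCAAT was in 4 of the 10. It began 159 bases before the start of Sptlc1, and in Sptlc2 it was found 3 times, at 243, 159 and 40 bases. The other two were Cers2, at 185 bases, and Cers6, at 48. Kdsr, shown above, held none of these letters. Of the 4 enzymes that fell, 2 held CCAAT and 1 held CACGTG. These are matches of letters only, and no binding was measured.

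Across all 35556 probe sets, 10.8% passed the test in alb-SREBP-1a against C57Bl6, 47.2% in alb-SREBP-1a∆P against C57Bl6 and 44.2% between both transgenic lines. Passing means a limma p, adjusted by Benjamini-Hochberg over all probe sets, under 0.05. The spread of log2 signals within an array (SD) averaged 2.06 for alb-SREBP-1a∆P, 2.19 for alb-SREBP-1a and 2.22 for C57Bl6. The arrays of alb-SREBP-1a∆P, at 2.02 to 2.09, lay below all others, whose range was 2.14 to 2.25. In that genotype dim probe sets tended to be higher and bright ones lower. The median log2 fold change of alb-SREBP-1a∆P against C57Bl6 was 0.27 in level class 3 and -0.29 in level class 9, where level classes 1 (dimmest) to 10 (brightest) hold equal shares of the probe sets by mean level over the 24 arrays. The median of its level class is given with each enzyme. Directions follow the genotype in the label of each array. The study's list of changes prints positive values as more abundant in the second genotype named. By that rule Sgpl1 was listed as higher in alb-SREBP-1a∆P than in C57Bl6, whereas by the array labels it was lower (log2 fold change -0.92). The study's text names Ppard, also positive in that list, as upregulated in C57Bl6 against each transgenic line. That is the reverse of the printed rule and the same direction as the array labels give for Sgpl1. The cause of this conflict in direction was not tested. All 5 hepatocyte markers, such as Alb, lay in level class 10. The log2 of their signals summed on the linear scale ran from 16.01 to 16.41 over the 24 livers.

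In alb-SREBP-1a liver no change of the enzymes was found. Of the 10, 0 passed limma's test in either direction, against 3.98% of all probe sets lower and 6.77% higher. The log2 fold changes ran from -0.22 for Sptlc2 to 0.11 for Degs2, with a median of -0.029 beside 0.011 for all probe sets. At an unadjusted p under 0.05 only Sptlc2 remained, at 7.86 ± 0.23 against 8.07 ± 0.11 in C57Bl6 (log2 signal, mean ± SD, n = 8), with a limma adjusted p of 0.159. The methods' t-test with Benjamini-Hochberg adjustment gave 0 as well. Sptlc2 passed only after quantile normalization, at -0.25 with an adjusted p of 0.0417. The 95% intervals limit what was missed, unevenly: for Kdsr the change lay between -0.17 and 0.17, and for Cers2 between -0.21 and 0.093. Wider ones were those of Cers6, from -0.44 to 0.14, Cers5, from -0.20 to 0.30, and Sptlc3, from -0.22 to 0.28. That of Degs2 ran from -0.12 to 0.33 and that of Sptlc2 from -0.41 to -0.019. In simulated data for this comparison, with 200 of 35556 probe sets changed, 47.8% of log2 changes of 0.5 were recovered. In the real comparison 3824 probe sets passed, so the adjustment differed, and this share is not the sensitivity for these enzymes.

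In alb-SREBP-1a∆P liver the enzymes did not share a direction. Against C57Bl6, 4 of the 10 enzymes fell (20.2% of all probe sets did), namely Sptlc1, Sptlc2, Kdsr and Degs1. Sptlc3 and Cers3 rose, 2 of 10 beside 27.0% of all probe sets, and Cers2, Cers5, Cers6 and Degs2 did not pass. The median over the 10 was -0.19, and over all probe sets it was 0.11. Against alb-SREBP-1a the same 4 fell (21.4% of all probe sets were lower) and Cers3 alone rose (22.8% were higher), with a median of -0.19 beside 0.081. Both comparisons share the alb-SREBP-1a∆P mice and are not independent of each other. Sptlc1 lies in level class 8, Sptlc2 and Kdsr in level class 9, and Degs1 and Cers2 in level class 10, and 46.1%, 53.3% and 47.2% of the probe sets in these classes fell against C57Bl6. Falls were thus common among probe sets of such levels. The 2 enzymes that rose both lie in level class 3, where 40.5% rose.

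**Figure D1:**
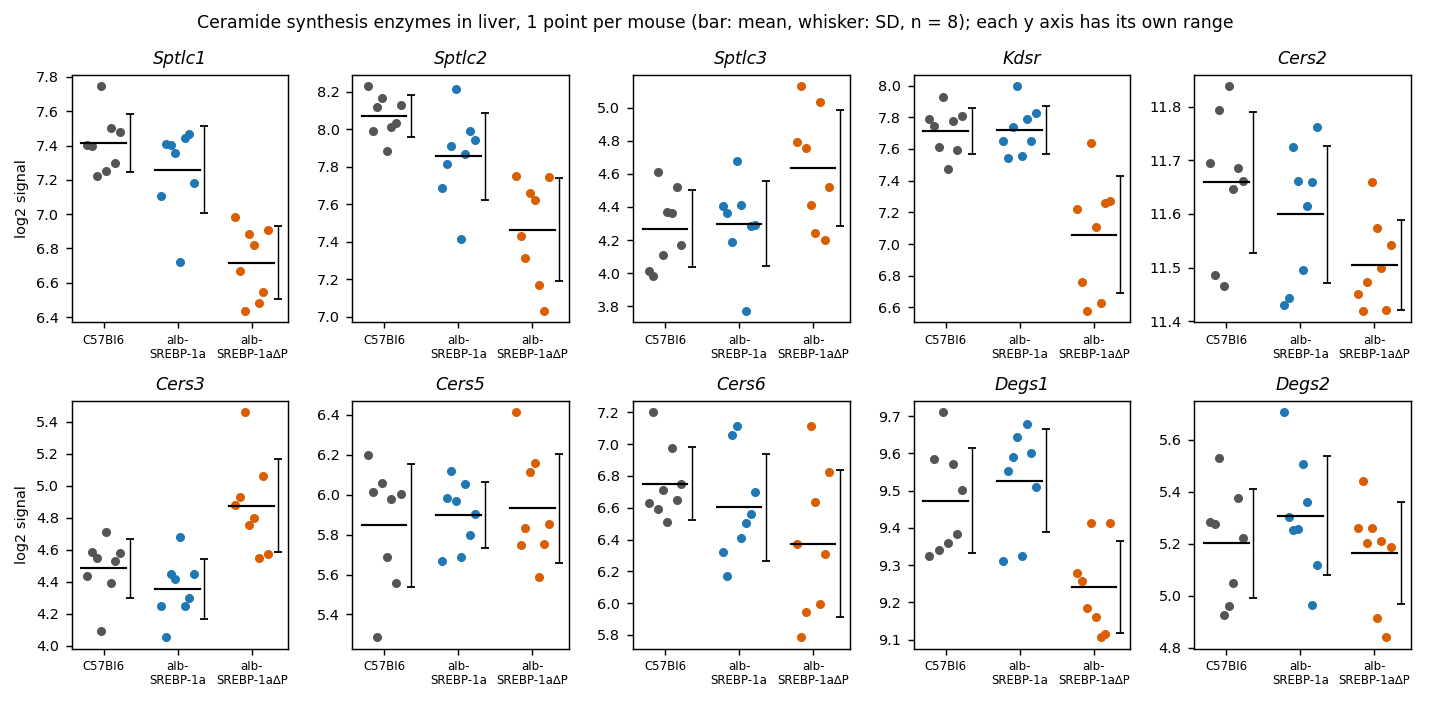
Log2 signal (y axis, own range in each panel) of the 10 enzymes in every mouse, by genotype (x axis), with the mean as a bar and the SD as a whisker (n = 8). All 8 alb-SREBP-1a∆P mice lie below all C57Bl6 mice for Sptlc1 and Sptlc2, and 7 of 8 do so for Kdsr.

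Serine palmitoyltransferase sets the entry into the pathway. Its shared subunit Sptlc1 lay between 7.22 and 7.75 on the log2 scale in C57Bl6 (median 7.40), between 6.72 and 7.47 in alb-SREBP-1a (median 7.38) and between 6.44 and 6.99 in alb-SREBP-1a∆P (median 6.75). All 8 alb-SREBP-1a∆P mice were below every C57Bl6 mouse, while alb-SREBP-1a overlapped C57Bl6 with most of its mice and the other line with replicate 5 alone, at 6.72. Sptlc1 fell by 0.70 ± 0.10 (log2 fold change ± SE) against C57Bl6, to 0.617 of its level, with an adjusted p of 3.6e-05. Against alb-SREBP-1a it fell by 0.54 ± 0.12 (adjusted p = 0.00182), with 4 of 8 mice below the lowest of that line. The medians of its level class were -0.23 and -0.27. Only 4.31% of all probe sets had a lower log2 fold change against C57Bl6 than Sptlc1.

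Sptlc2, the partner that carries the cofactor of the reaction in most tissues, ran from 7.88 to 8.23 in C57Bl6 (median 8.08), from 7.42 to 8.22 in alb-SREBP-1a (median 7.89) and from 7.03 to 7.75 in alb-SREBP-1a∆P (median 7.53). The 3 medians thus descended in this order, and only alb-SREBP-1a∆P was free of overlap with C57Bl6. The fall against C57Bl6 was 0.61 ± 0.11 with an adjusted p of 0.00023, to 0.657 of the level. Against alb-SREBP-1a, Sptlc2 fell by 0.39 ± 0.13 (adjusted p = 0.0193), and this difference did not pass after quantile normalization (-0.20) or cyclic loess (-0.11). The medians of its level class were -0.29 and -0.31, the latter close to its own change.

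Sptlc3, the alternative partner, which favours other acyl-CoA substrates, ran from 3.98 to 4.61 in C57Bl6, from 3.77 to 4.68 in alb-SREBP-1a and from 4.2 to 5.13 in alb-SREBP-1a∆P, with medians of 4.27, 4.33 and 4.64. The 3 ranges overlapped, and 4 of 8 alb-SREBP-1a∆P mice exceeded every C57Bl6 mouse. It rose by 0.37 ± 0.14 against C57Bl6 (adjusted p = 0.0428), close to the median of 0.27 of its level class. The rise did not pass after quantile normalization (0.064), centring of each array on its median (0.21) or cyclic loess (0.058). Against alb-SREBP-1a the value was 0.34 ± 0.15 with an adjusted p of 0.0721.

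Kdsr, the reductase of the second step, had nearly the same mean in C57Bl6 and alb-SREBP-1a. Its log2 signal ran from 7.47 to 7.92 in the former (median 7.76), from 7.54 to 7.999 in the latter (median 7.70) and from 6.58 to 7.64 in alb-SREBP-1a∆P (median 7.17). The 8 alb-SREBP-1a∆P mice were the most scattered, with an SD of 0.37 against 0.15 in both other genotypes. Replicate 4 alone, at 7.64, reached into their ranges. Kdsr fell by 0.66 ± 0.14 against C57Bl6 (adjusted p = 0.00091) and by 0.66 ± 0.14 against alb-SREBP-1a (adjusted p = 0.00151). The level class is that of Sptlc2. Without replicate 4 both values were -0.74, with adjusted p of 0.000131 and 0.000286, but leaving out the highest mouse deepens a fall in any case. Against alb-SREBP-1a, 2.98% of all probe sets had a lower log2 fold change.

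The ceramide synthases as a group did not share a direction. Cers2, which makes very-long-chain ceramides and is the characteristic synthase of liver, varied little: 11.5 to 11.8 for C57Bl6, 11.4 to 11.8 for alb-SREBP-1a and 11.4 to 11.7 for alb-SREBP-1a∆P. The 3 ranges overlapped, and 3 of 8 alb-SREBP-1a∆P mice lay below all C57Bl6 mice. Its log2 fold changes were -0.15 ± 0.07 against C57Bl6 (adjusted p = 0.0767) and -0.094 ± 0.07 against alb-SREBP-1a (adjusted p = 0.268), and the first lay near the -0.20 of its level class. Cers2 was lower after centring of each array on its median, by -0.31 and -0.26, and stood at 0.0011 and 0.041 after cyclic loess.

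Cers5 and Cers6 both make ceramides with palmitic acid. Cers5 ran from 5.29 to 6.20 in C57Bl6, from 5.67 to 6.12 in alb-SREBP-1a and from 5.59 to 6.41 in alb-SREBP-1a∆P, and the last genotype differed from C57Bl6 by a log2 fold change of 0.084 ± 0.14 and from the other line by 0.034 ± 0.11, with medians of 0.11 and 0.14 in its level class. Both signs turned after quantile normalization (-0.032 and -0.079) and centring (-0.077 and -0.13), without passing. Cers6 ran from 6.51 to 7.20, from 6.17 to 7.11 and from 5.79 to 7.11 in the same order of genotypes. In alb-SREBP-1a∆P 5 of 8 mice were below all C57Bl6 mice, yet replicate 4 stood at the upper end with 7.11. The Cers6 change against C57Bl6 was -0.38 ± 0.17 (adjusted p = 0.0778). It passed with array weights (-0.43) and after centring (-0.54). It also passed without that mouse (-0.48, adjusted p = 0.0152), but leaving out the highest mouse of the group deepens a fall in any case. For the difference from alb-SREBP-1a, -0.23 ± 0.19, the interval of -0.63 to 0.17 leaves room for a change in either direction. The medians of its level class were -0.040 and -0.085.

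Cers3, known from skin and testis for ultra-long-chain ceramides, ran from 4.09 to 4.71 in C57Bl6 (median 4.54), from 4.05 to 4.68 in alb-SREBP-1a (median 4.36) and from 4.55 to 5.46 in alb-SREBP-1a∆P (median 4.84). In alb-SREBP-1a∆P 6 of 8 mice lay above every mouse of each other genotype. It rose by 0.39 ± 0.12 against C57Bl6 (adjusted p = 0.0135) and by 0.52 ± 0.12 against alb-SREBP-1a (adjusted p = 0.00319). The medians of its level class were 0.27 and 0.28. Neither rise passed after quantile normalization (0.11 and 0.27) or cyclic loess (0.10 and 0.23), and centring kept only the second (0.23 and 0.35).

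Degs1, the desaturase that ends the main route, ran from 9.33 to 9.71 in C57Bl6 (median 9.44), from 9.31 to 9.68 in alb-SREBP-1a (median 9.57) and from 9.11 to 9.41 in alb-SREBP-1a∆P (median 9.22). In alb-SREBP-1a∆P 6 of 8 mice lay below all mice of each other genotype, and the highest 2 overlapped them. Degs1 fell by 0.23 ± 0.08 against C57Bl6 (adjusted p = 0.0209) and by 0.29 ± 0.08 against alb-SREBP-1a (adjusted p = 0.00725), with -0.20 as the median of its level class in both. After cyclic loess the values were 0.011 and -0.036, and after quantile normalization -0.091 and -0.12, none of which passed.

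Degs2, which also hydroxylates dihydroceramide, ran from 4.93 to 5.53 in C57Bl6, from 4.96 to 5.71 in alb-SREBP-1a and from 4.84 to 5.44 in alb-SREBP-1a∆P. The ranges overlapped, and the log2 fold changes of alb-SREBP-1a∆P were -0.037 ± 0.10 against C57Bl6 (adjusted p = 0.784) and -0.14 ± 0.11 against alb-SREBP-1a (adjusted p = 0.283). Its level class moved the other way, with medians of 0.18 and 0.21. Between the lines Degs2 was lower and passed after quantile normalization (-0.38), centring (-0.31) and cyclic loess (-0.36).

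**Figure D2:**
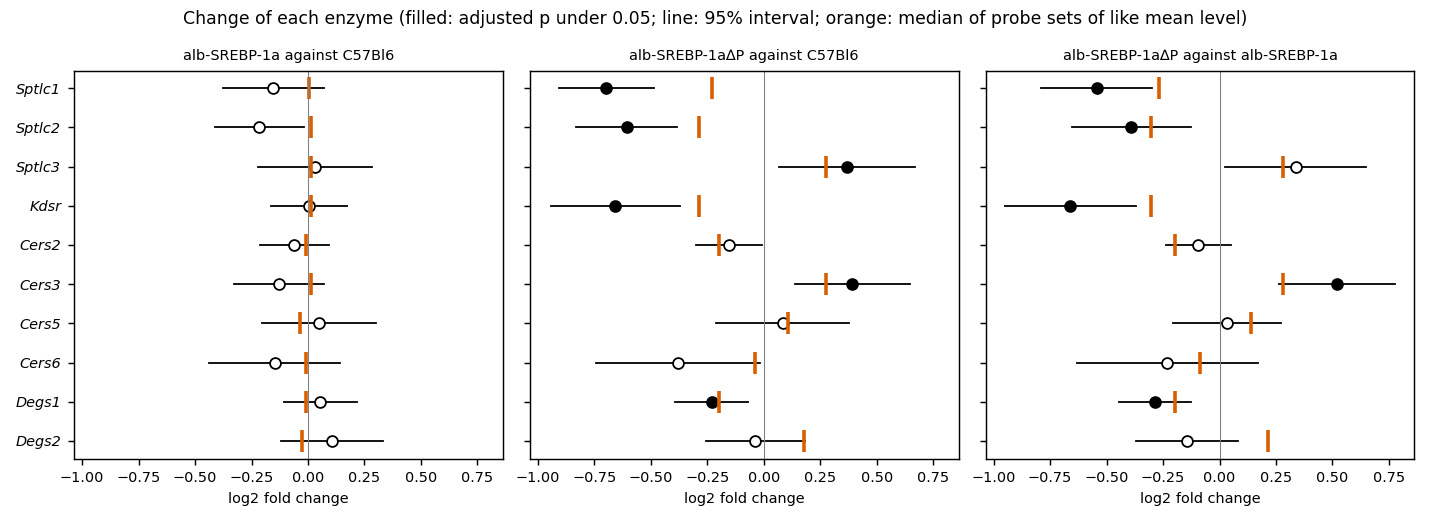
Log2 fold change (x axis) of each enzyme (rows) in the 3 comparisons, with its 95% interval as a line, filled where the adjusted p was under 0.05; orange ticks give the median of the probe sets in the same level class. In alb-SREBP-1a∆P against C57Bl6, Sptlc1, Sptlc2 and Kdsr lie at -0.70, -0.61 and -0.66, beyond the medians of -0.23 and -0.29 of their level classes.

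Scaling between arrays decided several of these calls. Sptlc1, Sptlc2 and Kdsr passed against C57Bl6 as deposited and under each of 3 other scalings, over ranges of -0.86 to -0.49, -0.77 to -0.35 and -0.82 to -0.42. Against alb-SREBP-1a the same held for Sptlc1 (-0.71 to -0.32) and Kdsr (-0.83 to -0.39). The median over all probe sets shifted under them by -0.14 (quantile), -0.16 (centring) and -0.11 (cyclic loess) in alb-SREBP-1a∆P against C57Bl6, and by -0.10, -0.17 and -0.085 against alb-SREBP-1a. In each of the 4 scalings the lowest of the 10 changes against C57Bl6 was that of Sptlc1, followed by Kdsr and Sptlc2. Of the calls on Degs1, Sptlc3 and Cers3 against C57Bl6, none was kept under quantile normalization and none under cyclic loess.

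**Figure D3:**
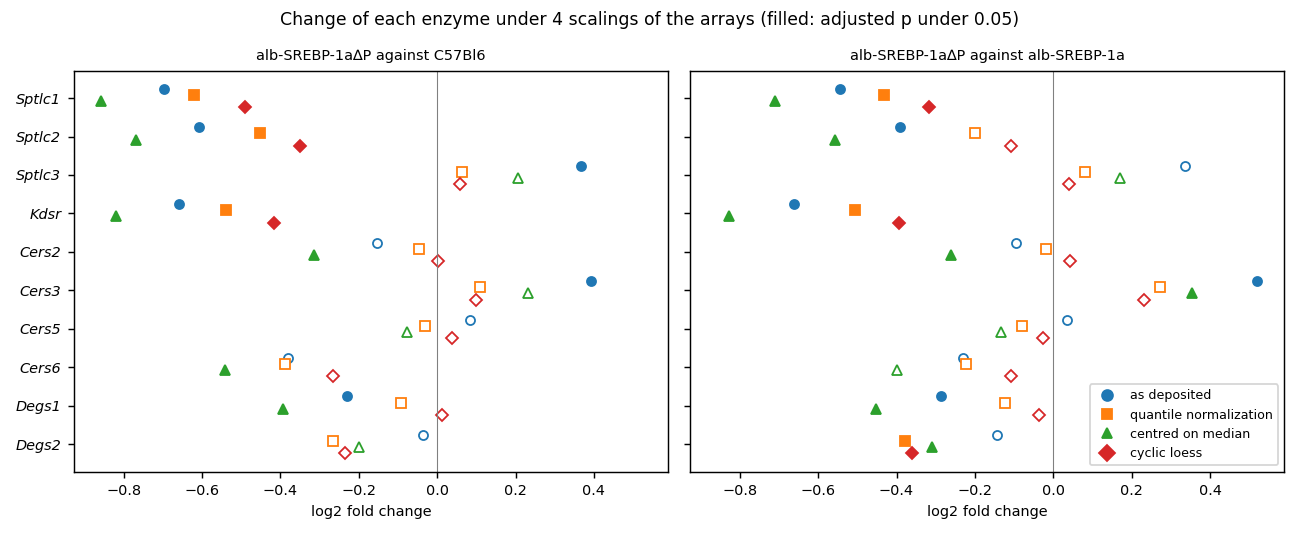
Log2 fold change (x axis) of each enzyme (rows) in alb-SREBP-1a∆P against C57Bl6 (left) and against alb-SREBP-1a (right) under 4 scalings, filled where the adjusted p was under 0.05. All 4 symbols are filled for Sptlc1 and Kdsr in both panels and for Sptlc2 on the left, and Degs1 runs from -0.39 to 0.011 on the left.

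Markers of liver cell types were read beside the shares over all probe sets. In alb-SREBP-1a 6.77% rose and 3.98% fell against C57Bl6, and in alb-SREBP-1a∆P 27.0% and 20.2%. Between the lines 22.8% rose and 21.4% fell. The endothelial and stellate markers that fell between the lines lie in level classes 9 and 10, where 62.3% and 46.1% of probe sets fell. Against C57Bl6, 3 of 5 Kupffer cell markers rose in alb-SREBP-1a while 2 of 5 did in alb-SREBP-1a∆P, and 3 of 5 fell between the lines. The log2 of the Kupffer cell signals summed on the linear scale ran from 10.2 to 10.7 for C57Bl6, 10.6 to 11.2 for alb-SREBP-1a and 10.5 to 11.3 for alb-SREBP-1a∆P. For sinusoidal endothelium, 1 of 4 rose in alb-SREBP-1a, while in alb-SREBP-1a∆P 1 of 4 fell against C57Bl6 and 2 of 4 against alb-SREBP-1a, with sums of 10.2 to 10.7, 10.2 to 10.6 and 9.98 to 10.4. Stellate cell sums were 11.4 to 11.7, 11.4 to 11.7 and 11.2 to 11.5, and in alb-SREBP-1a∆P 1 of 5 markers was lower than C57Bl6, 2 were lower than alb-SREBP-1a and 1 was higher than it. Of the T and B cell markers 1 of 3 rose in each transgenic line, and of the bile duct markers 0 of 4 passed. Among hepatocyte markers, 2 of 5 fell and 1 rose in alb-SREBP-1a∆P against C57Bl6, 1 rose in alb-SREBP-1a, and 0 passed between the lines. No marker was listed at 0. In bulk liver RNA fewer cells of a type and less RNA per cell cannot be told apart, and the part of other cells in the enzyme results was not tested.

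The genes around the route were read in the same way, 29 of 31 listed, and the others were not analysed here. Against C57Bl6, 1 rose and 4 fell in alb-SREBP-1a, and 2 rose and 15 fell in alb-SREBP-1a∆P, with medians of -0.047 and -0.24. Between the lines 3 were higher and 14 lower in alb-SREBP-1a∆P, with a median of -0.24. Over all probe sets the shares were 6.77% higher and 3.98% lower, then 27.0% and 20.2%, and 22.8% and 21.4% between the lines, and in level classes 8 to 10 between 46.1% and 53.3% fell in alb-SREBP-1a∆P against C57Bl6. The 5 calls of alb-SREBP-1a lay among the genes that use or degrade ceramide and its products. None of the 10 ceramide synthesis enzymes passed there, which is close to the 10.8% share of passing probe sets. Whether the lists differ was not tested. Samd8, Sphk2, Sgpp1 and Sgpl1 lie in level class 9, where 7.76% fell and 13.3% rose against C57Bl6 in that line. Acer1 lies in level class 4, where 1.18% fell.

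Small subunits and ORMDL proteins tune serine palmitoyltransferase. In alb-SREBP-1a 0 of 5 passed, beside 10.8% of all probe sets. In alb-SREBP-1a∆P 3 of 5 fell against C57Bl6: Sptssa, a small activating subunit, by 0.80 ± 0.18 (adjusted p = 0.00177), Ormdl1, an inhibitor of the enzyme, by 0.62 ± 0.13 (adjusted p = 0.00091), and its relative Ormdl2 by 0.28 ± 0.09 (adjusted p = 0.0196). Against alb-SREBP-1a the same 3 fell, with -0.58, -0.70 and -0.35. Of all probe sets 20.2% fell against C57Bl6 and 21.4% against alb-SREBP-1a. Sptssa and Ormdl1 lie in level class 8 and Ormdl2 in level class 9, where 46.1% and 53.3% fell against C57Bl6. Sptssa ran from 6.44 to 7.49 in C57Bl6 and from 5.70 to 6.82 in alb-SREBP-1a∆P, so the groups touched, and 6 of 8 alb-SREBP-1a∆P mice were below all C57Bl6 mice. The fall of Ormdl2 equalled the -0.29 of its level class and did not pass after quantile normalization (-0.10) or cyclic loess (-0.019), nor did that between the lines (-0.14 and -0.067), whereas Sptssa and Ormdl1 passed in both comparisons under all 4 scalings. Ormdl3, the third of these inhibitors, was at -0.17 ± 0.10 (adjusted p = 0.186) and -0.082 ± 0.10 (adjusted p = 0.528). Sptssb was at 0.43 ± 0.19 (adjusted p = 0.0763). Cers4, another ceramide synthase, did not pass in any comparison, with log2 fold changes of 0.054, 0.037 and -0.018.

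Of 7 genes that use or carry ceramide, 3 fell in alb-SREBP-1a∆P against C57Bl6 (20.2% of all probe sets did) and 4 against alb-SREBP-1a (21.4%). Ugt8a, which makes galactosylceramide, rose between the lines by 0.54 ± 0.19 (adjusted p = 0.0317), in 1 of the 4 scalings, as deposited. Cert1, which carries ceramide from the endoplasmic reticulum to the Golgi for sphingomyelin synthesis, ran from 7.10 to 7.67 in C57Bl6, from 6.74 to 7.56 in alb-SREBP-1a and from 6.18 to 6.91 in alb-SREBP-1a∆P. Its groups of C57Bl6 and alb-SREBP-1a∆P did not overlap. Cert1 fell by 0.91 ± 0.11 against C57Bl6 (adjusted p = 7.99e-06) and by 0.66 ± 0.13 against alb-SREBP-1a (adjusted p = 0.000921). Ugcg, which makes glucosylceramide, fell by 0.86 ± 0.15 and 0.69 ± 0.14. Samd8, which makes ceramide phosphoethanolamine, fell by 0.31 ± 0.08 in alb-SREBP-1a against C57Bl6, while the fall in alb-SREBP-1a∆P was 0.64 ± 0.11, both under all 4 scalings. Its fall between the lines, 0.33 ± 0.09, did not pass after quantile normalization (-0.14) or cyclic loess (-0.046). Sgms1, a sphingomyelin synthase, fell between the lines by 0.42 ± 0.12, which did not pass after quantile normalization (-0.37) or cyclic loess (-0.27). Against C57Bl6 it was at -0.22 ± 0.12 (adjusted p = 0.151) and passed under 3 alternatives, centring (-0.38) among them. Cert1 and Ugcg passed in both comparisons under all 4 scalings.

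Among 11 genes that release ceramide or break it down, 7 fell in alb-SREBP-1a∆P against C57Bl6 and 0 rose, beside 20.2% and 27.0% of all probe sets. Between the lines 6 fell and 1 rose, beside 21.4% and 22.8%. Asah1, the lysosomal acid ceramidase, fell by 0.55 ± 0.09 (adjusted p = 0.000133) and was below all C57Bl6 mice in 8 of 8. Acer3, an alkaline ceramidase, fell by 0.59 ± 0.14 against C57Bl6 and by 0.76 ± 0.14 against alb-SREBP-1a, although the median of its level class was positive, at 0.11 and 0.14. Asah2 and the glucosylceramidase Gba2 fell by 0.32 ± 0.07 and 0.29 ± 0.07 against C57Bl6, where their level classes had medians of -0.29 and -0.040. Asah2 did not pass after quantile normalization (-0.16), and neither passed after cyclic loess (-0.062 and -0.17). Acer1 fell by 0.35 ± 0.10 in alb-SREBP-1a (adjusted p = 0.0344) and between the lines was higher by 0.40 ± 0.13 in alb-SREBP-1a∆P (adjusted p = 0.0195), the latter in 1 of the 4 scalings, as deposited.

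The sphingosine 1-phosphate genes moved in both lines. Sgpl1, the lyase by which sphingoid bases leave the pathway, ran from 8.70 to 9.07 in C57Bl6, from 8.09 to 8.60 in alb-SREBP-1a and from 7.89 to 8.17 in alb-SREBP-1a∆P. Both transgenic lines lay wholly below C57Bl6. Sgpl1 fell by 0.55 ± 0.09 in alb-SREBP-1a (adjusted p = 0.000602), and it fell by 0.92 ± 0.07 in alb-SREBP-1a∆P (adjusted p = 1.24e-07), and the lines differed by -0.37 ± 0.09 (adjusted p = 0.0038). This last difference did not pass after quantile normalization or cyclic loess, where its smallest value was -0.084. The phosphatase Sgpp1 fell by 0.35 ± 0.10 and 0.51 ± 0.08. The kinase Sphk2 rose by 0.53 ± 0.07 in alb-SREBP-1a (adjusted p = 0.000144), where all 8 mice exceeded all C57Bl6 mice. In alb-SREBP-1a∆P it rose by 0.40 ± 0.09, which passed in 3 of the 4 scalings, with a smallest value of 0.24. Sphk1 rose in alb-SREBP-1a∆P alone, by 0.24 ± 0.09 against C57Bl6 and 0.35 ± 0.10 against alb-SREBP-1a. The first of these passed in 1 of the 4 scalings, as deposited, and the second in 2.

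**Figure D4:**
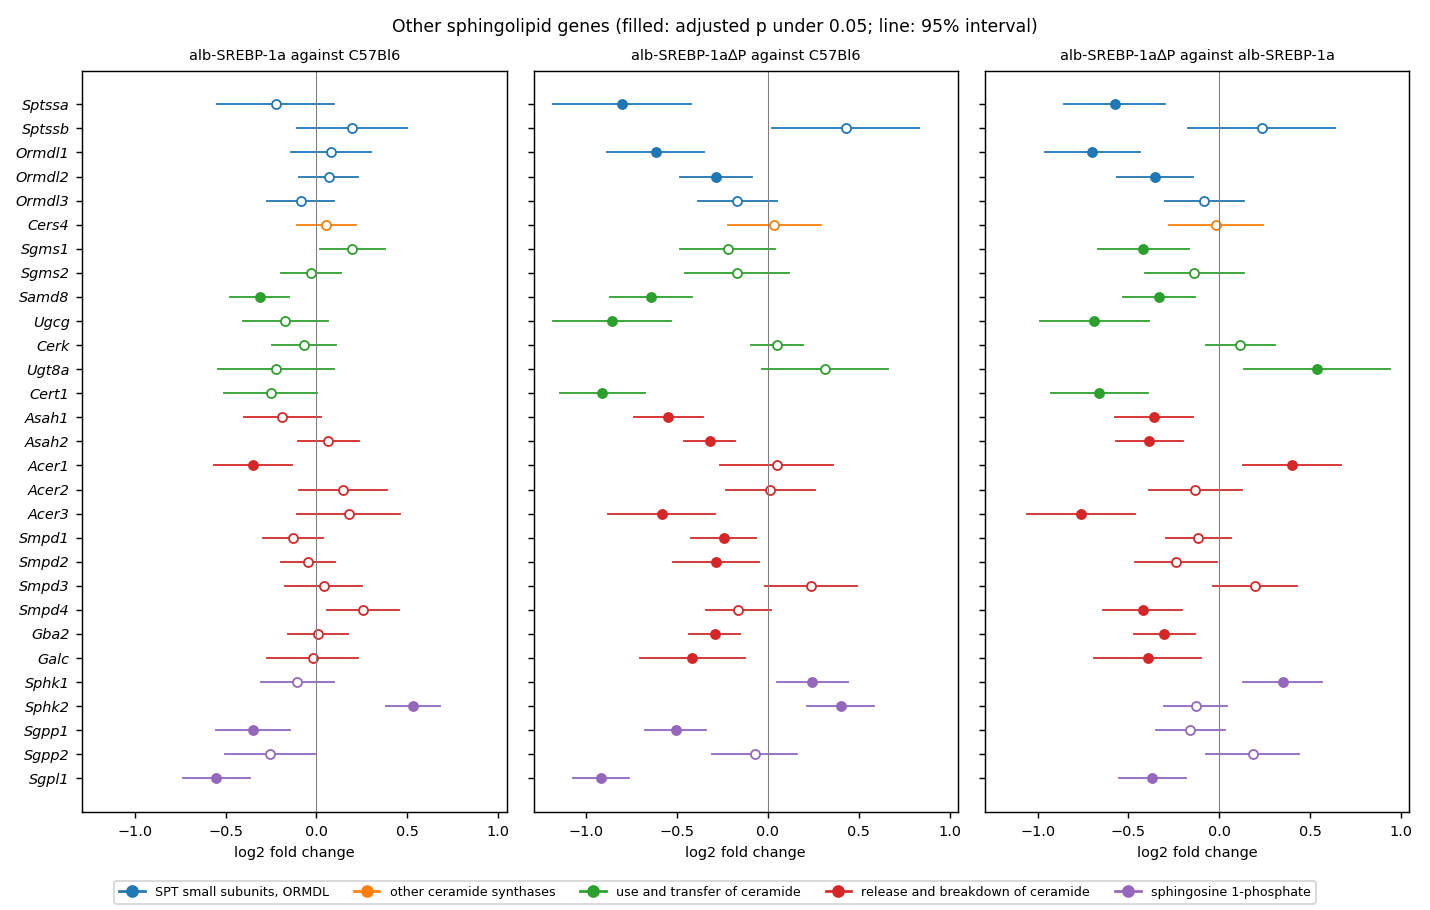
Log2 fold change (x axis) of 29 other sphingolipid genes (rows, coloured by list) in the 3 comparisons, with 95% intervals, filled where the adjusted p was under 0.05. Sgpl1 lies at -0.55, -0.92 and -0.37 from left to right, and Sphk2 at 0.53, 0.40 and -0.13.

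Some of the enzymes differed together among mice of the same genotype. After the genotype mean was subtracted from each of the 24 mice, 12 of 45 pairs of enzymes passed by Pearson's correlation (permutation within genotype, two-sided, adjusted over the 45 pairs), 11 of them positive, and 17 passed by Spearman's. Over all 45 pairs r was positive in 24 and negative in 21, with a median of 0.034. Without the 2 arrays farthest from the median on the x axis, 6 pairs passed, of which 4 had passed before. How many pairs of other genes would pass was not computed, so these counts show nothing particular to this route. Sptlc1, Sptlc2 and Kdsr each had closer partners among other genes, up to r = 0.93 for Sptlc2 with Atg4a. Sptlc1 and Degs1, the enzymes at the entry and the end of the route, had r = 0.81 and rho = 0.79 (permutation p = 1e-05 each, the smallest these draws can give; adjusted p = 0.00045 each). The r was 0.86 within C57Bl6, 0.86 within alb-SREBP-1a and 0.73 within alb-SREBP-1a∆P, and 0.82 without the 2 farthest arrays.

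Kdsr and Cers6 followed with r = 0.79 and rho = 0.78 (permutation p = 8e-05 and 0.00012, adjusted 0.0018 and 0.0027), and r was 0.70 without the 2 farthest arrays. The serine palmitoyltransferase partners Sptlc1 and Sptlc2 had r = 0.76 and rho = 0.74 (permutation p = 0.00017 and 0.00031, adjusted 0.00191 and 0.00349), and 0.67 without those arrays. Within genotypes their r was 0.42 for C57Bl6, 0.78 for alb-SREBP-1a and 0.91 for alb-SREBP-1a∆P. Sptlc1 and Cers5 had r = 0.68 and rho = 0.705 (permutation p = 0.00012 and 0.00029, adjusted 0.0018 and 0.00349), with r = 0.735 without them. The single negative pair, Sptlc1 and Cers3, had r = -0.61 and rho = -0.58 (permutation p = 0.00211 and 0.00478, adjusted 0.0158 and 0.0215), and its r of -0.41 without the 2 farthest arrays no longer passed. Within genotypes its r was -0.85 for C57Bl6, -0.68 for alb-SREBP-1a and -0.48 for alb-SREBP-1a∆P, so the call depended on those arrays and the sign did not. Tested within a genotype of 8 mice, 3 pairs passed in C57Bl6 and 0 in each transgenic line.

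**Figure D5:**
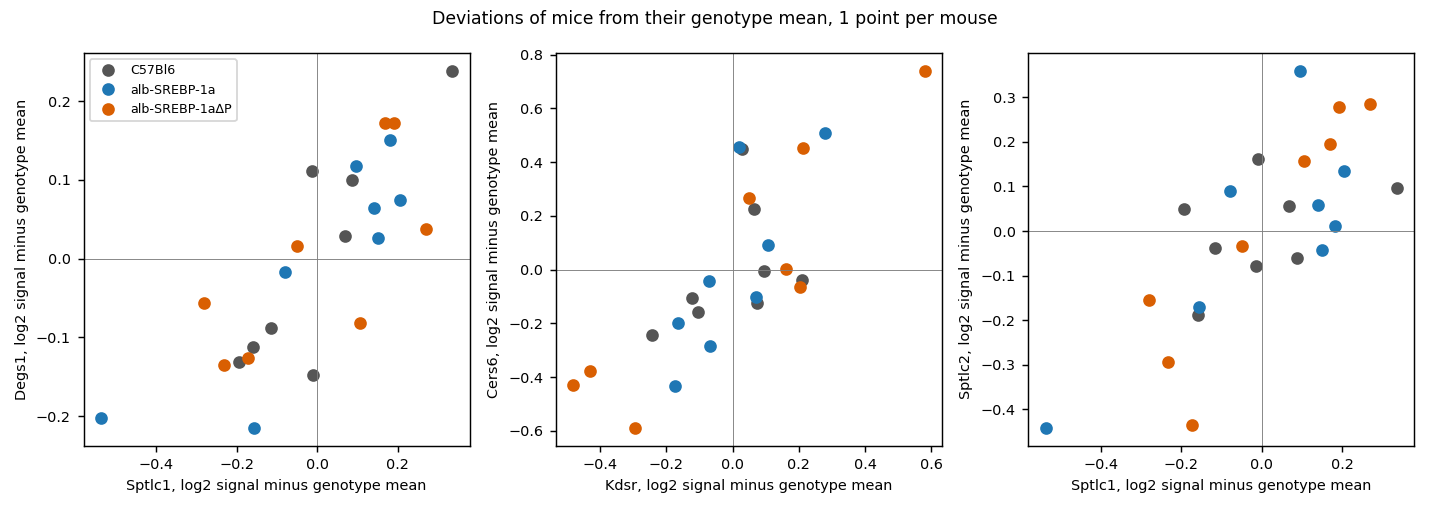
Deviation of each mouse from its genotype mean (log2 signal) for 3 pairs of enzymes, coloured by genotype, 1 point per mouse (24 in all). Mice low in Sptlc1 are low in Degs1 and Sptlc2 as well (r = 0.81 and 0.76), and Kdsr goes with Cers6 (r = 0.79).

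The spread of the whole array also varied between mice. Its correlation with the same deviations was r = 0.55 and rho = 0.48 for Degs1 (permutation p = 0.00871 and 0.0274, adjusted 0.0699 and 0.13) and r = 0.53 and rho = 0.44 for Sptlc1 (permutation p = 0.014 and 0.0391, adjusted 0.0699 and 0.13), and 0 of 10 enzymes passed. Without the 2 farthest arrays these were 0.48 and 0.37. The r was positive for 7 enzymes and negative for Sptlc3 (-0.30), Cers3 (-0.45) and Degs2 (-0.43), and the part of array spread in the pairs of enzymes was not tested.

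Among all single-symbol probe sets, the closest in deviation to Sptlc1 over the 24 arrays were Dek, a chromatin protein (r = 0.91), Gnl3, a nucleolar GTPase (r = 0.91), and the membrane protease Adam17 (r = 0.90). For Sptlc2 they were the autophagy protease Atg4a (r = 0.93), Riox2 (r = 0.88) and Cops2, a subunit of the COP9 signalosome (r = 0.85). For Kdsr they were the membrane protein Stom (r = 0.90), the mitochondrial serine carrier Sfxn1 (r = 0.87) and the mannosidase Manea (r = 0.87). These are the highest of many values and are given as a description.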

How the data were processed

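Total RNA (150 ng per array) from liver of 24 male mice was amplified and read on Mouse Gene 1.0 ST arrays. The authors deposited log2 signals made with RMA in Expression Console 1.1 (no source used here gives further settings). RMA summarises the probes of a probe set, and differences tend to be compressed at low signal. They cover 35556 probe sets without a missing value, of which 21789 carry 1 gene symbol, 1621 several and 12146 none. The build of the array annotation is not named, so genes are given without coordinates; promoters come from RefSeq.

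For each pair of genotypes limma 3.58.1 (R 4.3.3) was run on 8 against 8 arrays, two-sided, with Benjamini-Hochberg adjustment over all probe sets and a threshold of 0.05. The p-values reflect the spread among these mice, and the number of arrays limits the precision. For each gene the single-symbol probe set with the highest mean over 24 arrays was used. Correlations were tested with 100000 permutations within genotype (Python 3.11.15, numpy 2.4.6). Genes outside the 10 enzymes were named by a rule: up to 4 per list and comparison with the smallest p, and 3 closest probe sets each for Sptlc1, Sptlc2 and Kdsr. The members, the lists and the arrays left out were chosen with earlier results of these data known. Alternatives were quantile normalization, centring on the array median, cyclic loess, removal of dim probe sets, a replicate block, all 24 arrays together, a variance trend, array weights, the brightest probe set of each gene alone, the mean over probe sets, the methods' t-test and 2 settings without arrays. The methods name an unpaired t-test for data in general, while the study's list of changes prints ANOVA p-values. The tests used here were checked on simulated data before use. Some listed genes are not reported here.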

Additional observations from a re-analysis of the deposited data

Results flagged for a closer look

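Of 117 groups of 8 mice (39 sphingolipid genes in 3 genotypes), 2 held a mouse whose distance from its nearest neighbour exceeded Dixon's 95% critical ratio, and chance marks about 1 in 20 groups. C57Bl6 replicate 4 stood at 8.29 for Sgms2, a sphingomyelin synthase, with the next highest mouse at 7.94. The alb-SREBP-1a replicate 5 stood at 7.71 for Samd8, with the next lowest at 7.91. Neither is one of the 10 ceramide synthesis enzymes, for which no group was marked.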

How the results depend on the processing

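Of 361 changes of single ceramide synthesis enzymes recomputed under the alternatives, 330 kept their side of the threshold, 15 no longer passed, 15 newly passed and 1 that had passed turned. Of the 330, 13 changed sign, none of which passed in either setting. Each enzyme has 1 single-symbol probe set, so the mean over probe sets left its values as they were. The dim filter, replicate block, variance trend, fit of 24 arrays and methods' t-test altered only SE and p, not the log2 fold changes. Against C57Bl6, the falls of Sptlc1, Sptlc2 and Kdsr in alb-SREBP-1a∆P passed under all 12 alternatives. In that comparison, quantile normalization lost Sptlc3 (0.064), Cers3 (0.11) and Degs1 (-0.091), centring lost Sptlc3 (0.21) and Cers3 (0.23) and gained Cers2 (-0.31) and Cers6 (-0.54), and cyclic loess lost Sptlc3 (0.058) and Cers3 (0.10) and turned Degs1 to 0.011 and Smpd1 to 0.0041. Cers2 also passed with a variance trend (-0.15), the methods' t-test (-0.15) and without alb-SREBP-1a∆P replicate 4 (-0.18). Cers6 also passed with array weights (-0.43), with 1 probe set per gene tested, the brightest (-0.38), and without that replicate (-0.48). That replicate was the highest alb-SREBP-1a∆P mouse for both Cers2 and Cers6. Sptlc3 was lost with the methods' t-test (0.37). Enzymes counted as higher were 0 under each other scaling, without dim probe sets (where only 7 of the 10 were tested) and at the methods' unadjusted p and 1.5-fold, and 1 with the methods' t-test after Benjamini-Hochberg. In alb-SREBP-1a against C57Bl6 quantile normalization gave 1 enzyme lower, Sptlc2 (-0.25). Between the lines, quantile normalization lost Sptlc2 (-0.20), Cers3 (0.27) and Degs1 (-0.12) and gained Degs2 (-0.38), cyclic loess lost Sptlc2 (-0.11), Cers3 (0.23) and Degs1 (-0.036) and gained Degs2 (-0.36), and centring gained Cers2 (-0.26) and Degs2 (-0.31). Sptlc3 passed there with 24 arrays in 1 fit (0.34) and with 1 probe set per gene (0.34), which made 2 enzymes higher. No enzyme was higher between the lines under quantile normalization, cyclic loess, the dim filter (0) or the 1.5-fold threshold (0), and the last left 1 lower.

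For the other sphingolipid genes, alb-SREBP-1a against C57Bl6 gave 2 higher without dim probe sets or with array weights, 0 in each direction at the 1.5-fold threshold, and 2 lower without alb-SREBP-1a replicates 1 and 2. Against C57Bl6, alb-SREBP-1a∆P had 1 higher after quantile normalization or cyclic loess, 0 after centring, 5 with array weights, and 0 higher and 7 lower at the 1.5-fold threshold. Between the lines 0 were higher and 8 lower after quantile normalization, 0 higher after centring, 1 higher and 6 lower after cyclic loess, 1 higher without dim probe sets, and 0 higher and 4 lower at the 1.5-fold threshold. Of the pairs of enzymes, 6 passed without the 2 farthest arrays, and 3 within C57Bl6 but 0 within each transgenic line. The causes were not tested.

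Mice of different genotypes share only a replicate number: the correlation of their deviations ran from -0.12 to 0.28, and 2, 1 and 2 of 8 pairs exceeded 0.1. With the replicate block, Sptlc3 against C57Bl6 was at 0.37 and did not pass, which left 1 enzyme higher, and 2 other sphingolipid genes were lower in alb-SREBP-1a. No signal over background was given for these arrays, and Sptlc3, Cers3 and Degs2 lie in level classes 3, 3 and 5, where differences tend to be compressed.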
